A study of Saccharomyces cerevisiae with 72 samples.

Results

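The comparison described here is that of YHP1 under an uninduced estradiol promoter with YHP1 under its own promoter, before any estradiol was added. It uses the 12 libraries taken at 0 min from the 4 YHP1 strains, of 72 libraries in the whole series. Of these, 6 came from strains in which the Z4 promoter stood in front of YHP1, and 6 from strains that kept the native promoter. The libraries were picked by their labels, but the comparison was chosen with earlier results of these data known. Libraries taken after estradiol was added, and libraries of the YOX1 strains, serve for comparison where named.

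All strains were haploid MATa budding yeast (Saccharomyces cerevisiae) grown as asynchronous cultures in YM-1 medium with dextrose, and all were labelled ura3Δ0, his3Δ1, lypΔ0 and can1Δ::STE2pr-SpHIS5. All of them also expressed Z3EV, an estradiol-activated transcription factor, from the ACT1 promoter, inserted with a NatMX marker at HAP1. In the inducible strains, URA3 and the Z4 promoter that Z3EV binds had been inserted in front of YHP1 or of yhp1-13A, an allele without the Cdk1 phosphorylation sites. In the control strains the same URA3 and Z4 promoter cassette sat at the non-functional HO locus, while YHP1 or yhp1-13A was transcribed from its own promoter. In all 4 strains the allele ended in a 3V5 epitope tag with a KanMX marker. The YOX1 strains had the same design, with YOX1 or yox1-9A, an allele without its Cdk1 phosphorylation sites, in place of YHP1 or yhp1-13A. Where estradiol was added, it was at 1 µM, for 20 or 60 min. Each genotype was a single strain, sampled in 3 libraries, so a difference between promoters is also a difference between strains. The labels number the libraries 1 to 3 within each strain. They do not say that these were separate cultures, so p-values measure the spread between the libraries, which may be technical.

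Yhp1 is a homeodomain repressor and a paralog of Yox1. Both are known to bind beside Mcm1, a MADS box factor, at early cell cycle box (ECB) elements, and to keep genes such as CLN3, SWI4, CDC6 and the MCM genes low outside the transition from mitosis to G1. Their own genes are transcribed late in G1 and in S phase. The comparison at 0 min asks how the transcriptome of dividing cells differs when YHP1 mRNA comes from a heterologous promoter that has not been switched on.

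Expression was given as TPM, a relative abundance corrected for transcript length that sums to the same total in each library, with 6181 to 6245 genes above 1 TPM in each of the 12 libraries. The depth of the libraries is unknown, and precision was judged from the spread between them. Differences are given as log2(TPM + 1) of the inducible strains minus that of the controls, from a linear model with allele and library number as covariates. A gene is said to have passed when its adjusted p was under 0.05, and to be called when its absolute log2 difference was also above 0.58, a 1.5-fold difference. Each group of 6 libraries holds 3 of each allele, and n = 6 per group holds throughout unless another n is given.

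The mRNA of YHP1 was lower in every library of the inducible strains than in any control library. In the YHP1 controls it was 66.6, 52.9 and 66.4 TPM, and in the yhp1-13A controls 48.2, 37.4 and 47.2 TPM. In the inducible strains it was 23.8, 22.5 and 20.1 TPM for YHP1 and 21.6, 19.9 and 22.2 TPM for yhp1-13A. The uninduced promoter gave a level with little spread (21.7 ± 1.49 TPM, SD, n = 6) and below that of the native promoter (53.1 ± 11.5 TPM). The log2 difference was -1.23 (95% interval -1.41 to -1.05, adjusted p = 1.57e-06), or 2.34-fold lower. An exact two-sided permutation test over the 12 libraries gave p = 0.00216, and exact sign flips of the 6 pairs of same-numbered libraries gave p = 0.0312. Both are the smallest p those designs allow. The mRNA was present in all 6 libraries, so the inducible strains at 0 min held less YHP1 mRNA rather than none. After 20 min of estradiol the same strains reached 848 ± 58.8 TPM (n = 6).

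YHP1 lies on chromosome IV of the R64 genome, chrIV:1361120-1362181, on the minus strand. The 300 bases before its annotated start are its native upstream sequence, shown because the Z4 promoter was placed in front of the gene in the inducible strains only. Capitals mark CC and GG with 6 bases of any kind between them, the core of Mcm1 sites, which occurred 2 times in the window, chrIV:1362182-1362481 (written 5′ to 3′ on the minus strand).
YHP1 upstream window: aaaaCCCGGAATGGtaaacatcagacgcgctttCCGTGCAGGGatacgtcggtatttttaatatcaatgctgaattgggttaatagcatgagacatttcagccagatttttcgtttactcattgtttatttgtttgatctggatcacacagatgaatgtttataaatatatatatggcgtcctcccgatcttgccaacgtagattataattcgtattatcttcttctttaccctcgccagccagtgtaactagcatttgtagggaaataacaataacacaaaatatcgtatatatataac
The homeodomain cores TAATTA and TAATTG, searched on both strands, did not occur in this window. A match to such short letters is only a description of the window.

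HO was the other locus that differed by design, since the controls carried the Z4 promoter in front of it. In the YHP1 controls HO was at 5.89, 4.90 and 5.17 TPM and in the inducible YHP1 strain at 24.8, 19.7 and 19.6 TPM. In the yhp1-13A controls it was at 8.70, 5.09 and 4.37 TPM and in the inducible yhp1-13A strain at 31.7, 13.2 and 19.3 TPM. The groups did not overlap, and the uninduced Z4 promoter again went with the lower level (log2 difference 1.72, interval 1.48 to 1.97, adjusted p = 1.48e-06). With estradiol the order turned, with 327 ± 15.9 TPM in the controls and 32.1 ± 2.47 TPM in the inducible strains at 20 min. At 0 min HO mRNA was thus 3.30-fold higher, and YHP1 mRNA 2.34-fold lower, where each had or lacked its own promoter, both on the scale of log2(TPM + 1).

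Other genes of the constructs did not separate the groups. URA3, the marker of the cassette in all 4 strains, was at 93.3 ± 6.64 TPM in the inducible strains and 100 ± 23.1 TPM in the controls (log2 difference -0.08, adjusted p = 0.546). YOX1, the paralog of YHP1, was at 54.5 ± 6.48 and 52.4 ± 4.52 TPM (0.05, interval -0.05 to 0.15, adjusted p = 0.551). None of the 3 genes on each side of YHP1 (ADA2, UTP6, RPS18A, PPN1, TSA2 and GUK1) or of HO (BRE4, PTP1, SSB1, GCS1, SHS1 and WHI4) was called. CAN1, which the labels list as deleted, was at 31.1 ± 3.47 TPM in the inducible strains and 33.9 ± 3.71 TPM in the controls. Whether these reads come from outside the deleted stretch was not tested. Both groups expressed STE2, the receptor for alpha factor, at 479 to 706 TPM over the 12 libraries, as MATa cells do. STE3, the receptor found on MATalpha cells, was at 0.782 to 1.87 TPM.

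**Figure D1:**
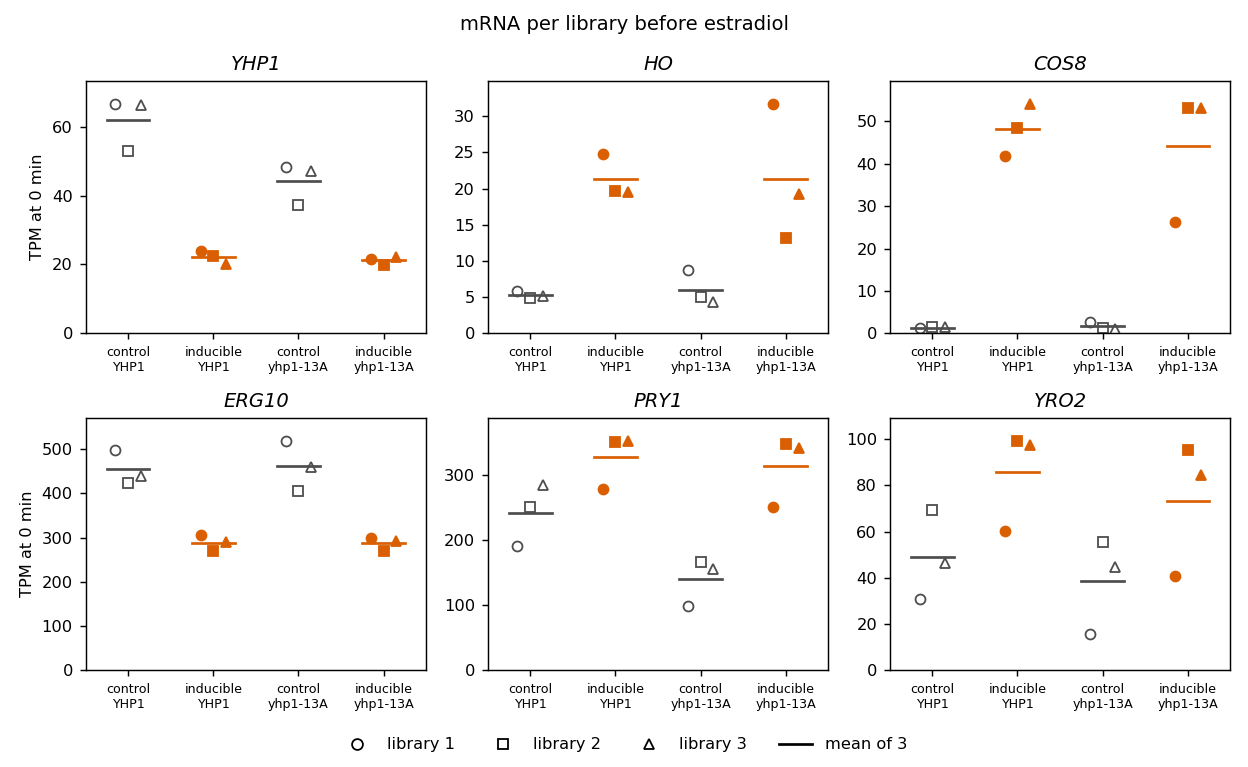
TPM at 0 min (vertical axes, linear, from 0) in each of the 3 libraries of the 4 strains, for 6 genes; open grey symbols are controls, filled orange symbols are inducible strains, symbol shapes are library numbers and lines are means of 3. YHP1 (19.9 to 23.8 TPM) and ERG10 lie below every control in the inducible strains, HO and COS8 lie above every control, and PRY1 and YRO2 overlap between groups but are higher in each pair of same-numbered libraries.

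Few genes differed by 1.5-fold or more. Of 6231 genes tested, 25 were called (0.401%), 19 of them higher (0.305%) and 6 lower (0.0963%) in the inducible strains. At an adjusted p under 0.05 alone, 323 were higher (5.18%) and 116 lower (1.86%), most by much less than 1.5-fold. The median over all genes was 0.048. Shifting every library to a common median moved the passed genes to 223 higher and 321 lower, so the balance between directions depends on the scaling. The counts rest on the library numbers being used as a block: without it, 5 genes were called higher and 3 lower, and 26 passed. Libraries of the same number did deviate together, as described under the methods, and those numbered 1 stood apart in every strain. HSP42, for example, was at 8.21 and 9.56 TPM in the controls numbered 1 and at 39.7 to 61.2 TPM in the other controls. Leaving out all 4 libraries numbered 1 gave 439 higher and 79 lower genes. Leaving out the yhp1-13A control numbered 1 alone gave 929 higher, and leaving out the YHP1 control numbered 2 gave 148 higher, so the number of small differences is not well determined.

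The largest difference was at the left end of chromosome VIII. COS8, a member of a subtelomeric family of membrane proteins that act in endosomal sorting, lies at chrVIII:6401-7546. It was at 1.21, 1.44 and 1.42 TPM in the YHP1 controls and 2.67, 1.33 and 1.09 TPM in the yhp1-13A controls. In the inducible strains it was at 41.8, 48.5 and 54.1 TPM with YHP1 and 26.2, 53.1 and 53.2 TPM with yhp1-13A. The groups were far apart, with a log2 difference of 4.21 (interval 3.83 to 4.58, adjusted p = 1.0e-08). YHL050C, at chrVIII:445-3311, was the next called gene outward, with at most 0.099 TPM in the controls and 1.70 to 5.96 TPM in the inducible strains (log2 difference 2.31, adjusted p = 3.46e-06). Between them lies YHL049C, too low to be tested, which was listed at 0 in all 6 controls and at 0.0909 to 0.569 TPM in the inducible libraries. The next genes inward did not follow. ARN2, a siderophore transporter gene at chrVIII:8351-10213, had a log2 difference of -0.06 (adjusted p = 0.758), and PAU13 had 0.16 (adjusted p = 0.49). ARN2 instead varied with library number, from 35.5 to 54.4 TPM in libraries numbered 1 to 301 to 346 TPM in those numbered 3. Genes of the COS family share much sequence, and of its 10 tested members COS8 was the only one that passed.

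The chromosome VIII difference did not change with estradiol and was not seen in the YOX1 strains. COS8 differed by 4.74 at 20 min and 4.22 at 60 min, in other libraries of the same 4 strains. In the 4 YOX1 and yox1-9A strains of the other table, COS8 was at 0.687 to 1.81 TPM in the controls and 1.13 to 2.20 TPM in the inducible strains. YHL050C was at 0.111 TPM or less in all 12 of those libraries. Of the 8 strains of the series, then, only the inducible YHP1 and inducible yhp1-13A strains had COS8 above 2.67 TPM at 0 min. The YHP1 and YOX1 tables were normalized separately, and no test was made between them. Whether a feature of these strains other than the YHP1 promoter set this level was not tested.

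**Figure D2:**
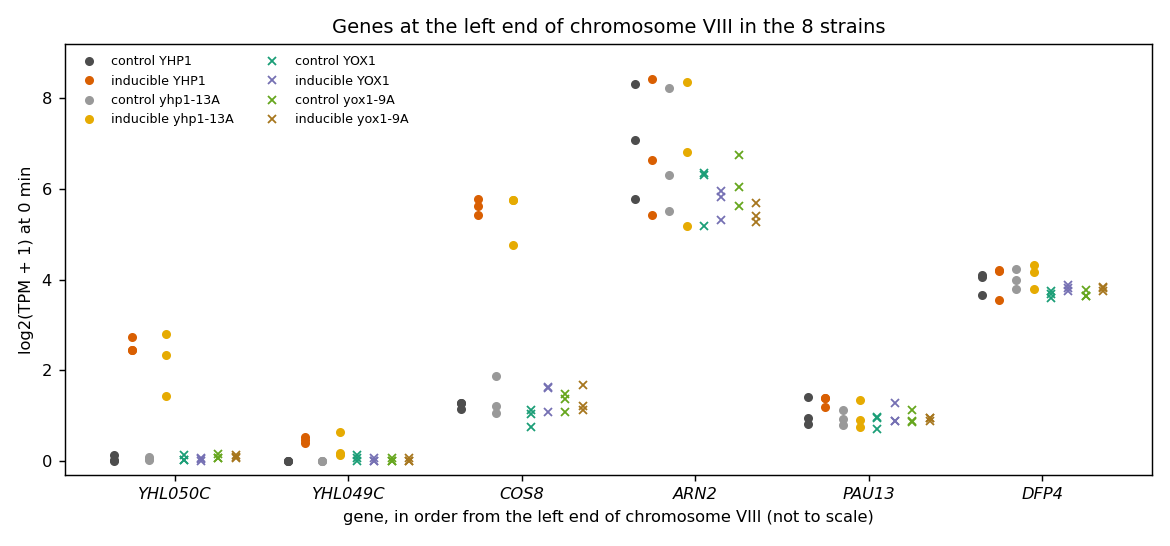
log2(TPM + 1) at 0 min (vertical axis) of 6 genes in their order from the left end of chromosome VIII (horizontal axis, not to scale), each point being a library; circles are the YHP1 strains and crosses the YOX1 strains, in 8 colours by strain. YHL050C, YHL049C and COS8 are raised in the inducible YHP1 and yhp1-13A strains (COS8 26.2 to 54.1 TPM) and near the floor in the other 6, while ARN2, PAU13 and DFP4 overlap between the promoters.

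A group of mRNAs was modestly lower in the inducible strains. ERG10, the acetyl-CoA acetyltransferase that begins the mevalonate and sterol pathway, was at 498, 424 and 440 TPM in the YHP1 controls and 306, 270 and 289 TPM in the inducible YHP1 strain. With yhp1-13A the values were 518, 405 and 459 TPM against 299, 269 and 292 TPM. The groups did not overlap, the log2 difference was -0.66 (interval -0.73 to -0.59), and the adjusted p of 5.34e-08 was among the lowest of any gene. YOR111W, an uncharacterised gene, went from 24.4 to 29.4 TPM in the controls to 15.3 to 19.3 TPM in the inducible strains (log2 difference -0.61, adjusted p = 1.95e-05). The other sterol genes did not follow ERG10: of 20 tested genes of the Hap1 and sterol list, ERG28 (-0.12) was the only other that passed in either direction, and the median was 0.016.

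Below the 1.5-fold limit, the same pattern of groups that did not overlap was found for HTA2, SPE2, EMC2, SYS1, ARC15, LSM6 and TRX2. These are examples, and how many of all genes had groups without overlap was not counted. HTA2, 1 of the 2 histone H2A genes, was at 782 to 1020 TPM in the controls and 599 to 678 TPM in the inducible strains (log2 difference -0.51, adjusted p = 6.20e-06). Its near-identical copy HTA1 was at 1530 to 1700 TPM in the controls and 1540 to 1740 TPM in the inducible strains, and HTA2 was the only one of the 8 core histone genes that passed. Reads shared between the copies can move these values. SPE2, which makes decarboxylated S-adenosylmethionine for polyamines, differed by -0.47 (adjusted p = 8.94e-06). EMC2, of the endoplasmic reticulum membrane complex, differed by -0.55, and SYS1, a Golgi membrane protein, by -0.51. ARC15 of the Arp2/3 complex (-0.45), LSM6 of the Lsm RNA-binding rings (-0.44) and TRX2, a thioredoxin (-0.42), were of similar size. EMC2, ARC15 and LSM6 were, with ERG10, among the 5 genes whose levels most resembled YHP1 over the 12 libraries (Pearson r of 0.927 to 0.942 on the log2 scale, with the libraries sharing strains). The lowest r were those of COS8 (-0.941) and YNL143C (-0.940). YHP1 itself separated the 2 promoters, so these r largely restate the promoter differences.

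These lower genes stayed lower after estradiol, when YHP1 mRNA was far above its native level. ERG10 differed by -0.47 at 20 min and -0.50 at 60 min, YOR111W by -0.44 and -0.37, and HTA2 by -0.28 and -0.53. Of the 116 genes that passed lower at 0 min, 64 (55.2%) passed lower at 20 min, where 3.10% of all genes did, and 47 (40.5%) at 60 min, where 5.17% did. In all, 34 genes were lower at all 3 times and 52 were higher at all 3 times, of 6165 tested at each. None of the 34 had a promoter difference that changed from 0 to 20 or to 60 min at an adjusted p under 0.05. Choosing genes that were lower at all 3 times favours this. Of all 116, YHP1 included, 1 passed upward in the change to 20 min and 11 in that to 60 min. Among all genes, 0.578% and 1.14% passed in either direction. The libraries of the 3 times are distinct, but they come from the same strains and may come from the same cultures.

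Some of them were also lower in the inducible YOX1 strains before estradiol, where the Z4 promoter had been inserted before YOX1 rather than YHP1. These are 12 other libraries, in which YOX1 mRNA was at 26.0 ± 5.51 TPM in the inducible strains and 113 ± 11.5 TPM in the controls. There 22 of 6245 genes were called (0.352%), and 82 passed higher (1.31%) and 45 lower (0.721%). ERG10 was at 331 to 422 TPM in the inducible YOX1 strains and 527 to 606 TPM in their controls (log2 difference -0.55, adjusted p = 8.73e-04). YOR111W (-0.53), EMC2 (-0.54), SPE2 (-0.47), ARC15 (-0.50) and HTA2 (-0.29) also passed there in the same direction. Of the 116 lower genes 28 (24.1%) passed lower in the YOX1 strains, and of the 323 higher genes 37 of the 322 tested (11.5%) passed higher. RDN5-1, a 5S ribosomal RNA gene of a tandem repeat, was higher in both sets, by 1.48 and 1.87. CCW22 (0.69 and 0.62), a cell wall protein gene, and TDA6 (0.65 and 0.67) were called higher in both. YDR133C, which overlaps CCW22, was higher by 0.63 and 0.79, and reads of overlapping genes may not be told apart. Strand and the handling of poly-A tails are uncertain for these libraries, which bears on RDN5-1 and on overlapping genes.

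Most genes that passed higher at 0 min were not lower after estradiol. Of the 323, 75 (23.2%) passed higher at 20 min and 22 (6.81%) lower, against 5.3% and 3.1% of all genes. At 60 min 114 (35.3%) passed higher and 40 (12.4%) lower, against 13.4% and 5.17%. A smaller set of genes was higher with low YHP1 and lower once YHP1 had been induced. It was picked from the measured values: 20 genes passed higher at 0 min and lower at 20 and at 60 min, 1 of them HO. The description that follows is of the other 19, which were 0.15 to 0.91 higher at 0 min. Membership is fragile at the lower end, since HOF1, YNL146C-A, PHO3, YER158C, CPR8 and MFA2 were lost in 11, 10, 9, 7, 5 and 5 of 13 fits that left out libraries, and GSY2 in 2. Without the block on library number only SED1, NDL1 and YML119W of the 19 passed at 0 min. YRO2, which codes for a plasma membrane protein, had the largest difference. It was at 31.0, 69.3 and 46.5 TPM in the YHP1 controls and 60.1, 99.1 and 97.4 TPM in the inducible YHP1 strain. With yhp1-13A it was at 15.8, 55.4 and 44.6 TPM against 40.7, 95.1 and 84.3 TPM. The groups overlapped, but each of the 6 pairs of same-numbered libraries was higher (log2 difference 0.91, interval 0.68 to 1.14, adjusted p = 1.73e-04). At 20 min it differed by -0.37 and at 60 min by -1.40.

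PRY1 codes for a secreted protein that binds sterols. It was at 192, 251 and 285 TPM in the YHP1 controls and 279, 352 and 353 TPM in the inducible YHP1 strain. In the yhp1-13A controls it was at 99.5, 167 and 156 TPM, and in the inducible yhp1-13A strain at 252, 349 and 342 TPM. The yhp1-13A controls were thus the lowest strain, and both inducible strains were alike (log2 difference over both alleles 0.81, adjusted p = 7.34e-04). At 20 min PRY1 differed by -0.85 and at 60 min by -1.50, and the change from 0 to 60 min was -2.30 (adjusted p = 7.52e-14).

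The remaining genes of this set had smaller differences at 0 min. BNS1, a paralog of the mitotic exit gene SPO12, was higher by 0.47 at 0 min and lower by 0.40 at 20 min and 0.34 at 60 min. WSC4, of the family of cell wall stress sensors, differed by 0.44, -0.60 and -0.70. SED1, a major cell wall glycoprotein, was at 1800 to 2170 TPM in the controls and 2360 to 3050 TPM in the inducible strains at 0 min, with no overlap, and differed by 0.43, -0.33 and -0.76. NDL1, a dynein regulator, differed by 0.33, -0.88 and -0.98, and MFA2, a gene for a-factor pheromone, by 0.25, -1.20 and -1.32. YLR297W, YML119W, YGP1, TPO3, GSY2, GFA1, HOF1, UTH1, YER158C, CPR8, PHO3 and YNL146C-A complete the set. YNL146C-A is adjacent to MFA2, so these neighbours are not independent of each other.

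The change of the promoter difference with time was tested over all 36 libraries of the YHP1 strains, a test added after the data had been seen. Over all genes, 36 of 6230 passed from 0 to 20 min (0.578%) and 71 from 0 to 60 min (1.14%). Of the 19 genes, 15 passed from 0 to 20 min and 18 from 0 to 60 min, all downward. The rule that chose them uses the same libraries, so these counts are a description. The Yox1 strains give libraries that did not enter that rule. There, 150 of 6255 genes were called lower (2.40%) in the change from 0 to 20 min of the inducible YOX1 strain minus that of its control, and 18 of the 19 were among them. The exception was CPR8 (-0.64, adjusted p = 0.19). This overlap is not independent of the rule, which required lower levels after Yhp1 induction. The paper reports that the genes regulated by Yhp1 were nearly all among those regulated by Yox1. A high share was thus favoured by the choice of genes, and it does not bear on their higher levels at 0 min. The share among other genes lower at 20 and at 60 min was not tested.

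Of the 150 genes lowered by Yox1, 127 had a log2 difference above 0 with low YHP1, as did 4343 of all 6231 genes. At 0 min 35 of the 150 passed higher (23.3%, against 5.18% of all genes) and 3 passed lower (2.00%, against 1.86%). The median over the list was 0.122, and 0.048 over all genes. HO is in the list because the YOX1 controls carry the Z4 promoter at that locus and induce it, and all these counts include it. The 5 called higher were HO, YRO2, PRY1, TDA6 and YER053C-A, and the only gene called lower was YHP1 itself. After estradiol the list turned the other way. At 20 min 60 of the 150 passed lower and 5 higher, where 3.1% and 5.3% of all genes did. At 60 min 69 passed lower and 6 higher, where 5.17% and 13.4% of all genes did. Without the yhp1-13A control numbered 1 the count of 35 became 62.

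The upstream windows of YRO2 and PRY1, the 2 called genes of the set other than HO, and of WSC4 and BNS1 are shown because these genes moved in opposite directions with low and with high YHP1. Capitals mark the homeodomain cores and the Mcm1 core on either strand. Each window is the 300 bases before the annotated start in R64, written 5′ to 3′ on the strand of the gene: YRO2 at chrII:342801-343100, PRY1 at chrX:290775-291074 (minus strand), WSC4 at chrVIII:48463-48762 and BNS1 at chrVII:951594-951893.
YRO2 upstream window: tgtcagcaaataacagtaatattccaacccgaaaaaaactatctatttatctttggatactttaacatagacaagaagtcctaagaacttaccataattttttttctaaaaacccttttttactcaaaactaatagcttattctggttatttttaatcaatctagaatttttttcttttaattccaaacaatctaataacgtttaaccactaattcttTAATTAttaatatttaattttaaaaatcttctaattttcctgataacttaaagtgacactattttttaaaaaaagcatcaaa
PRY1 upstream window: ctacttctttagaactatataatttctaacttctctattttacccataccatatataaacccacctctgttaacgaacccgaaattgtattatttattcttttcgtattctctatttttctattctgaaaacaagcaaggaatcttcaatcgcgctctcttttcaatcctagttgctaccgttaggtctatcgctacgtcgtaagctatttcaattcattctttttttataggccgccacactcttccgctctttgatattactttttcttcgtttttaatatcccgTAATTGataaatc
WSC4 upstream window: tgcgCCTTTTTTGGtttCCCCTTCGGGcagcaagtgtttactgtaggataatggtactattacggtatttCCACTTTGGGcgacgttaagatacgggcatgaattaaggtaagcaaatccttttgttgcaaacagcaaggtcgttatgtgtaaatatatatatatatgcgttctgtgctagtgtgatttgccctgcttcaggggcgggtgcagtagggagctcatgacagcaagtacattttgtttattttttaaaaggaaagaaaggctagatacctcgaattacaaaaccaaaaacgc
BNS1 upstream window: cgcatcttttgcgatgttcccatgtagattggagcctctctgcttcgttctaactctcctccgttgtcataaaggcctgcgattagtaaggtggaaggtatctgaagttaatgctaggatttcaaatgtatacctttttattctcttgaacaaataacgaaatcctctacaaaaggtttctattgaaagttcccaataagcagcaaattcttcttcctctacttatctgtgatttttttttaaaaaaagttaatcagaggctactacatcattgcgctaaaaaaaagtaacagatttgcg
YRO2 has 1 TAATTA, PRY1 1 TAATTG and WSC4 3 copies of the Mcm1 core, while BNS1 has no match. Over all 5705 tested genes with such a window, 16.3% held TAATTA, 23.5% TAATTG and 28.8% the Mcm1 core. Among the 19 genes, 7 held TAATTA (36.8%), 5 held TAATTG (26.3%) and 9 held the Mcm1 core (47.4%). The letters of the Mcm1 core read alike on both strands, and the motifs may overlap. These shares are descriptions with no test.

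**Figure D3:**
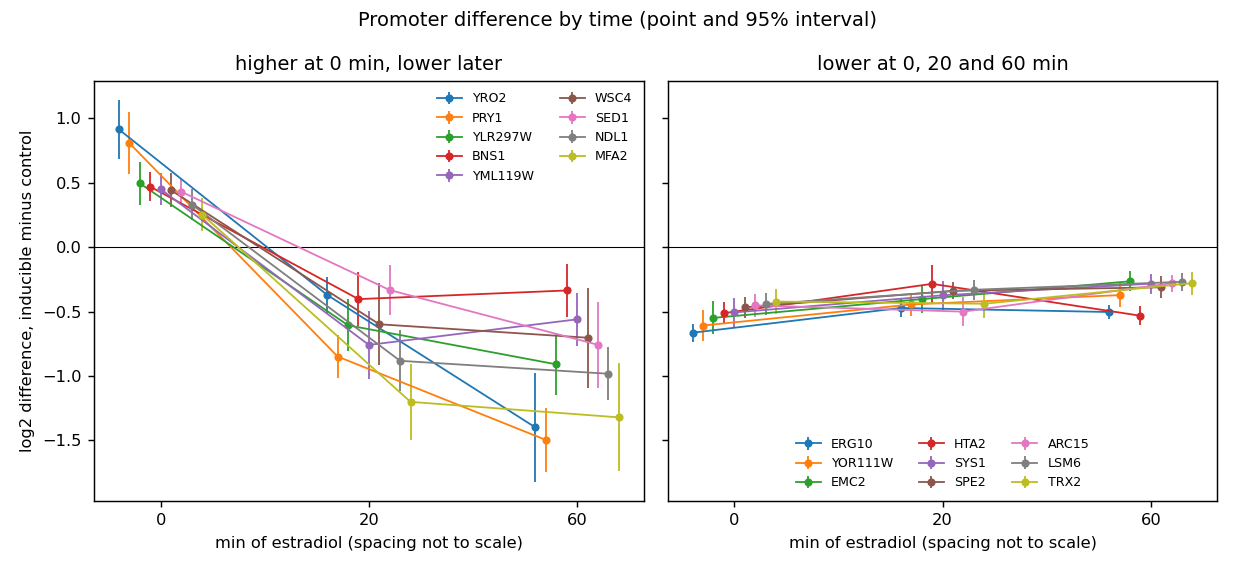
Log2 difference of the inducible strains minus the controls (vertical axis, with 95% interval) at 0, 20 and 60 min of estradiol (horizontal axis, spacing not to scale), n = 6 libraries per promoter and time; left, 9 genes higher at 0 min and lower later, right, 9 genes lower at each time. The left genes cross 0 between 0 and 20 min (PRY1 0.81, -0.85 and -1.50), and the right genes stay below 0 (ERG10 -0.66, -0.47 and -0.50).

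The genes best known as targets of Yhp1 and Yox1 did not stand out at 0 min. None of the 6 ECB genes (CLN3, SWI4, CDC6, MCM3, MCM5 and MCM7) passed, and their median was 0.060 against 0.048 over all genes. CLN3, the most upstream G1 cyclin gene, was at a log2 difference of 0.13 (interval 0.04 to 0.22, adjusted p = 0.0831), and SWI4, a subunit of the SBF transcription factor, at 0.17 (adjusted p = 0.168). CDC6, which loads the replicative helicase, was at -0.04 (interval -0.17 to 0.08). In the YOX1 strains, where YOX1 mRNA was low instead, 4 of the 6 passed higher and the median was 0.396. The difference between the tables was not tested. Of 15 genes of the pre-replicative complex, ORC5 (0.19) alone passed (6.67% higher, against 5.18% of all genes).

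Of the genes of the CLB2 cluster, which peak in G2 and mitosis, 4 of 23 passed higher (17.4%, against 5.18% of all genes) and none lower, with a median of 0.128. They were BNS1 (0.47), CHS2, the chitin synthase of the primary septum (0.26), SPO12 (0.24) and HOF1, an F-BAR protein of the cytokinetic ring (0.23). HOF1 was near the threshold (adjusted p = 0.0496) and was lost in 11 of 13 fits that left out libraries. Without the yhp1-13A control numbered 1, 11 genes of the cluster passed, and without the inducible yhp1-13A library numbered 1, 2 passed. None of 23 G1/S genes and none of 13 regulators that work with Mcm1, the Fkh factors or SBF and MBF passed, with medians of 0.073 and 0.086.

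Genes of the stress response and chaperones were higher in the inducible strains. Of 19 environmental stress genes, 11 passed higher (57.9%, against 5.18% of all genes) and none lower, with a median of 0.288 against 0.048 over all genes. HSP42, HSP104 and TSL1 were called. HSP42, a small heat shock protein, was at 8.21, 39.7 and 49.5 TPM in the YHP1 controls and 18.4, 71.8 and 65.0 TPM in the inducible YHP1 strain. With yhp1-13A it was at 9.56, 54.0 and 61.2 TPM against 18.8, 85.8 and 74.0 TPM. The spread between library numbers was thus larger than that between promoters, and within each number the inducible library was higher (log2 difference 0.69, interval 0.50 to 0.88, adjusted p = 4.52e-04). HSP104, the protein disaggregase, differed by 0.61 (adjusted p = 1.77e-04), and TSL1, a subunit of trehalose synthase, by 0.61 (adjusted p = 0.00622). Other trehalose and glycogen genes rose less, among them TPS2 (0.46), GSY1 (0.46) and TPS1 (0.24). The small heat shock genes HSP12 (0.05) and HSP26 (0.11) and the catalase gene CTT1 (0.30, adjusted p = 0.0585) did not pass.

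Of 15 heat shock chaperone genes, 8 passed higher (53.3%, against 5.18%) and none lower, with a median of 0.235. HSP78, the mitochondrial disaggregase, was called (0.71, interval 0.52 to 0.89, adjusted p = 2.46e-04). HSP82, an Hsp90, differed by 0.54 (adjusted p = 2.29e-05), SIS1, a J-protein, by 0.39, and SSA1, an Hsp70, by 0.33. BTN2, which sorts misfolded proteins, was called outside these lists (0.67, adjusted p = 1.95e-05), with 6 of 6 pairs higher. The respiratory chain and tricarboxylic acid cycle genes shifted by less, with 16 of 35 higher (45.7%, against 5.18%), none lower and a median of 0.156. CYC7, the minor cytochrome c, was the highest (0.55), and QCR6 (0.37), CYT1 (0.35) and SDH2 (0.32) followed. FMP48, a mitochondrial protein of the kinase family, was called as well (0.69, adjusted p = 0.00409).

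The stress and respiration differences depend on comparing libraries of the same number. Without that block none of the stress, chaperone or respiration genes passed, and in a fit of all 36 libraries 0, 0 and 3 passed. With every library shifted to a common median the counts were 7, 8 and 6. Without the 4 libraries numbered 1 they were 11, 10 and 15. The respiration count was also 9 without the variance trend and 2 with yhp1-13A alone. Leaving out the YHP1 control numbered 2 gave 5 stress genes, and leaving out the inducible YHP1 library numbered 3 gave 8 respiration genes. The medians over the 6 pairs ran from 0.074 to 0.521 for stress genes and 0.157 to 0.376 for chaperones, and from -0.087 to 0.175 for all genes. At 20 and 60 min the stress list was at medians of -0.050 and -0.096 and the chaperones at 0.015 and 0.106. The respiration list stayed at 0.111 and 0.121. Of its 35 genes, 8 and 15 passed higher at these times, where 5.3% and 13.4% of all genes did. In the YOX1 strains at 0 min the stress, chaperone and respiration lists were at 0.017, 0.110 and 0.083, and no gene of these lists passed. Whether culture density or handling at sampling went with these values was not tested.

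**Figure D4:**
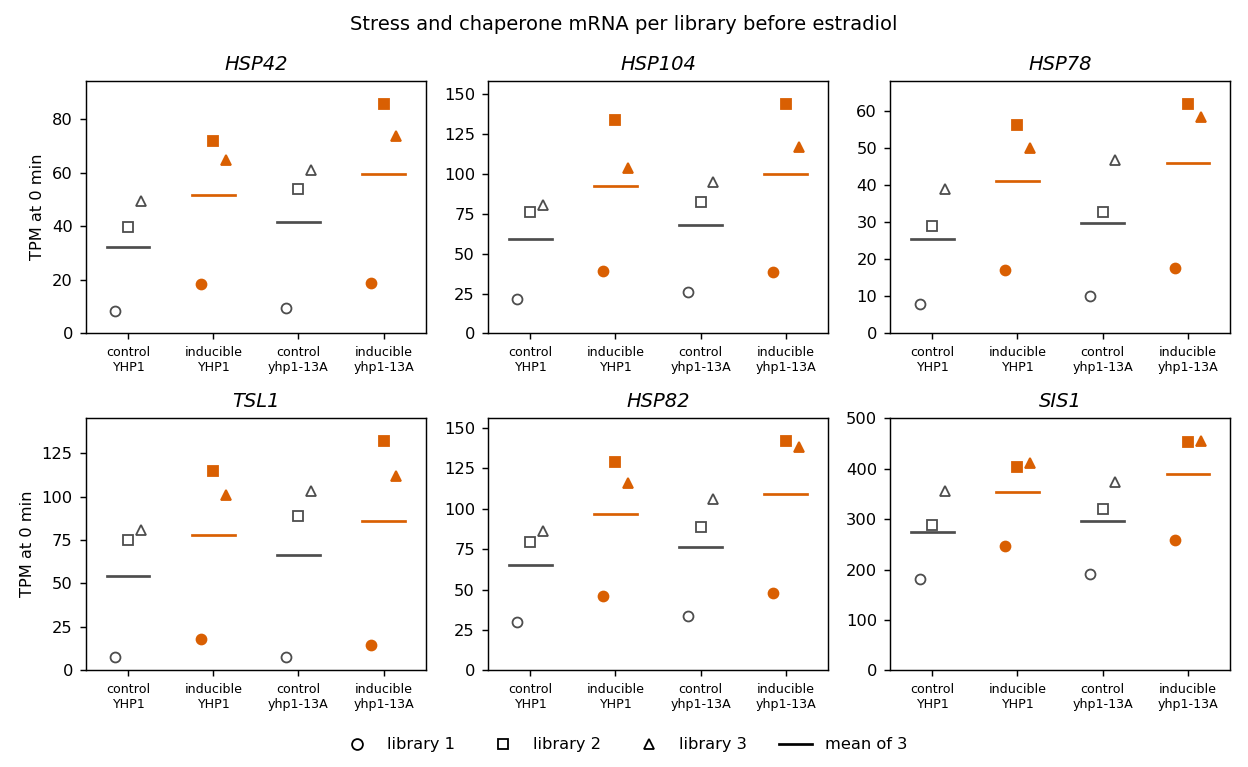
TPM at 0 min (vertical axes, linear, from 0) of 6 stress and chaperone genes in the 3 libraries of the 4 strains, with symbol shape giving the library number, open grey controls, filled orange inducible strains and lines for means of 3. Libraries numbered 1 are the lowest in every strain (HSP42 8.21 to 18.8 TPM), and within a number the inducible library is higher.

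**Figure D5:**
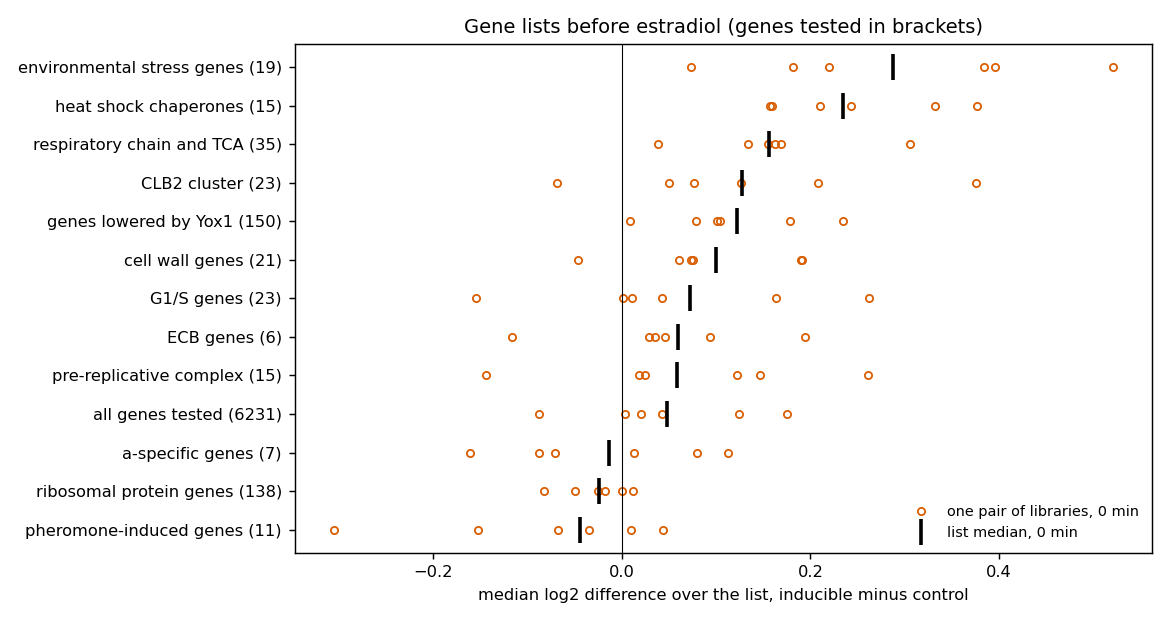
Median log2 difference at 0 min (horizontal axis) over 13 groups of genes (vertical axis, number of genes tested in brackets); circles are the 6 pairs of same-numbered libraries and black bars the medians from the model. All 6 pairs of the stress, chaperone and respiration lists lie above 0. In the ECB, G1/S and pre-replicative complex lists only the yhp1-13A pair numbered 1 lies below 0 (-0.116, -0.154 and -0.144). The median of all genes in that pair was -0.087.

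Cell wall and mating genes moved in both directions. Of 21 cell wall genes, 5 passed higher (23.8%, against 5.18% of all genes) and 1 lower (4.76%, against 1.86%), with a median of 0.10. The higher genes were PRY1, WSC4, YGP1, SED1 and UTH1. The lower gene was TIR1, a mannoprotein of cold-grown and anaerobic cells, at 20.4 to 30.7 TPM in the controls and 14.8 to 20.9 TPM in the inducible strains (log2 difference -0.48, adjusted p = 0.00871). It was lower in the YOX1 strains too (-1.38). Many names of this list were known as targets of the induced repressors in these strains, so its direction is not independent evidence. Of 7 a-specific genes 1 passed higher (14.3%, against 5.18%) and 2 lower (28.6%, against 1.86%). MFA2 was higher (0.25), while AGA2, the binding subunit of a-agglutinin (-0.27), and BAR1, a secreted protease that cleaves alpha factor (-0.18), were lower. Of 11 pheromone-induced genes 3 were lower (27.3%, against 1.86% of all genes). They were FUS1, needed for cell fusion (-0.40), AGA1, the anchor of a-agglutinin (-0.25), and the MAP kinase gene FUS3 (-0.21). FUS1 was lost in 7 of 13 fits that left out libraries, with an adjusted p of 0.0721 without the libraries numbered 1 and 0.696 without the block. By 60 min these had turned, with AGA2 at 0.38, FUS1 at 0.49 and AGA1 at 0.58.

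Each allele gave a similar number of called genes. Within YHP1, 3 libraries against 3, 14 genes were called higher and 4 lower (0.289% of 6231), and within yhp1-13A 14 higher and 5 lower (0.305%). No gene passed in the test of the difference between alleles. An unadjusted p under 0.05 was found for 86 of 6231 genes, a share that is itself below 0.05. PRY1 had the smallest p, with a log2 difference of 0.44 within YHP1 and 1.17 within yhp1-13A (adjusted p of the difference 0.0615). YHP1 itself differed by -1.44 within YHP1 and -1.02 within yhp1-13A, since the native promoter gave 62.0 ± 7.89 TPM (n = 3) of YHP1 and 44.3 ± 5.98 TPM (n = 3) of yhp1-13A (unadjusted p of the difference 0.0059 by limma, adjusted p = 1.00). Of the 323 genes that passed higher, all 323 were above 0 in both alleles, and all 116 that passed lower were below 0 in both, a direction that the choice of genes favours.

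The other called genes were low or of repeated kinds. The transfer RNA gene tL(UAG)L1 was at 8.30 to 17.9 TPM in the controls and 4.79 to 7.69 TPM in the inducible strains (log2 difference -0.78, adjusted p = 0.00841), and tT(AGU)O2 differed by -0.77. YIR044C (-0.71) was lower in the yhp1-13A strains (-1.21) and at -0.21 in the YHP1 strains (adjusted p = 0.62). YLR406C-A, at 1.26 to 1.91 TPM in the controls, differed by 0.61. The transcription factor gene MGA1 (0.60) and the dubious reading frame YLR255C (0.59) complete the called genes with YER053C-A (0.59, and 0.79 in the YOX1 strains), the last being among the genes lowered by Yox1. They were named after their values had been seen. The calls of tT(AGU)O2, YIR044C and YLR406C-A were lost in 4, 7 and 3 of 13 fits that left out libraries. Small untranslated RNAs are captured unevenly by poly-A methods, so their TPM are uncertain.

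Few members passed in the remaining lists. Of 138 ribosomal protein genes 1 was higher (0.725%, against 5.18% of all genes) and 1 lower (0.725%, against 1.86%), with a median of -0.024. Of 19 ribosome biogenesis genes 2 were lower (10.5%, against 1.86% of all genes), CIC1 (-0.22) and NSR1 (-0.12). Of 16 sulfur amino acid genes 3 were higher (18.8%, against 5.18%), STR3 (0.34), MMP1 (0.22) and CYS3 (0.12). CIC1 was lost in 5 and STR3 in 11 of 13 fits that left out libraries. The next 3 lists had shares near the 5.18% of all genes that passed higher. The arginine and lysine genes had 1 of 16 higher (6.25%), the amino acid permease gene GAP1 (0.31), at a median of 0.028. The phosphate genes had 1 of 12 higher (8.33%), the acid phosphatase gene PHO3 (0.15). Of 11 hexose transport genes 1 was higher (9.09%), MTH1, a regulator of their transcription (0.28). HXT7, a high affinity transporter, was at 0.44 and did not pass. None of 17 iron uptake genes and none of 11 uracil genes passed.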

How the data were processed

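The authors sequenced RNA of yeast cultures, aligned reads with STAR 2.5.3a to the R64 genome, counted fragments in exons with featureCounts 1.5.2 and deposited TPM values, scaled for transcript length and library total, in 1 table for the YHP1 strains and 1 for the YOX1 strains. The labels name poly-A depletion and the methods poly-A purification, and neither states the strand setting. Depth is unknown, so TPM give no counting error.

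From the YHP1 table, genes averaging 1 TPM or more across the compared libraries entered a fit of log2(TPM + 1) by limma 3.58.1 (R 4.3.3), a moderated test with a variance trend, two-sided, 95% intervals, with promoter, allele and library number as terms. P-values were adjusted by Benjamini-Hochberg over all genes tested. The 20 and 60 min libraries and the 0 min libraries of the YOX1 table were fitted separately and in the same way. The list of genes lowered by Yox1 came from a fit of the 36 libraries of the YOX1 table without the block. Deviations of same-numbered libraries from their strain means correlated at 0.337 to 0.817 over 18 pairs and those of different numbers at -0.661 to 0.243 over 36 pairs, across 6231 genes. All p-values of single genes are from limma unless an exact test is named.

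Named genes are YHP1, HO, YOX1 and URA3, the 15 highest and 15 lowest called genes, where fewer than 10 were called those of lowest p up to 10, up to 3 neighbours of YHP1 and HO on each side, called members and extremes of each gene list, and the 5 genes most and least like YHP1. SYS1 and TRX2, from the genes lower at all 3 times, fell under none of these rules and were named after their values had been seen. The comparison, the members and the lists were chosen with earlier results of these data known. Gene names and upstream sequences are from RefSeq (R64), which held 5938 of the 6865 genes of the YHP1 table. The fit was tested on simulated data. Alternatives were other pseudocounts, filters and scalings, no block, a fit of 36 libraries, each allele alone, no variance trend, and leaving out libraries. Leaving out all libraries numbered 1, the change of the promoter difference with time and the list counts under alternatives were added after seeing the data. The result of 1 gene list is not reported here.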

Additional observations from a re-analysis of the deposited data

Results flagged for a closer look

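For the 11 genes given here, beside most of the set higher at 0 min and lower later, the difference between the inducible and control strains changed with estradiol at an adjusted p under 0.05 (limma, Benjamini-Hochberg over 6230 genes, 36 libraries), which drew attention to them as differences between time points. The promoters were switched on at the 2 loci of the constructs. YHP1 changed by 4.87 on the log2 scale from 0 to 20 min and by 5.02 from 0 to 60 min. HO, which the controls induced, changed by -5.03 and -6.00.

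Of the genes higher at 0 min, PRY1, TDA6, BNS1, MFA2 and YRO2 turned downward. Most did not: of all 323 genes that passed higher at 0 min, 20 passed downward in the change to 20 min and 24 in that to 60 min. PRY1 changed by -1.66 to 20 min and -2.30 to 60 min, TDA6, which is next to TPO3, by -0.87 and -1.11, BNS1 by -0.87 and -0.81, and MFA2 by -1.45 and -1.57. YRO2 changed by -2.31 to 60 min. PPN1, a polyphosphatase gene beside YHP1, changed by -0.42 (adjusted p = 0.00362) and -0.75 (adjusted p = 4.08e-07), and YOX1 by -0.57 to 60 min (adjusted p = 0.0184). The mating genes AGA2 (0.65, adjusted p = 1.11e-04) and FUS1 (0.90, adjusted p = 2.09e-05) changed upward to 60 min. No explanation of these changes was tested.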

How the results depend on the processing

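None of the 58 named genes that passed changed direction under the alternatives run. Of these, 16 still passed without the replicate block, 34 in the fit of 36 libraries, 50 with a common median, 51 with quantile normalization and 50 without the libraries numbered 1. Those 16 without the block were YHP1, HO, COS8, YHL050C, ERG10, YOR111W, EMC2, HTA2, LSM6, ARC15, RDN5-1, SED1, NDL1, YML119W, YKL033W-A and YNL143C, and the adjusted p was 0.105 for PRY1, 0.402 for YRO2 and 0.875 for HSP42.

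Genes called at 0 min (19 higher, 6 lower) became 12 and 2 with a pseudocount of 5, 5 and 3 without the block, 12 and 10 with a common median, 13 and 8 with quantile normalization, 9 higher in the fit of 36 libraries, 10 lower without the libraries numbered 1, and 323 and 116 by adjusted p alone. Genes that passed (323 and 116) became 10 and 16 without the block, 138 and 75 in the fit of 36 libraries, 223 and 321 with a common median, 257 and 299 with quantile normalization, 96 and 36 with YHP1 alone and 62 and 35 with yhp1-13A alone. The common median and quantile scalings shifted the median of all genes from 0.048 to 0.

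Calls within each allele became 3 higher without the block, and 2 lower within yhp1-13A. At 20 min a pseudocount of 5 gave 4 higher and 8 lower and no block 10 lower. At 60 min that pseudocount gave 4 and 15, and in the YOX1 strains at 0 min 9 and 5. Without the block, 1 gene was called higher in the change to 60 min. List counts without the block were 0 for stress, chaperone, respiration and CLB2 genes, 1 for cell wall genes and 4 for genes lowered by Yox1.

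Leaving out libraries gave 17 to 28 higher and 4 to 10 lower calls at 0 min, with 148 to 929 and 75 to 144 passed. It gave 8 to 22 and 4 to 7 calls within YHP1, 10 to 17 and 2 to 7 within yhp1-13A, and 0 to 1 in each direction between alleles. At 20 min it gave 6 to 10 and 9 to 18, at 60 min 8 to 11 and 16 to 28, and in the YOX1 strains 10 to 16 and 4 to 10. Depth is unknown, so differences of genes near 1 TPM cannot be given a counting error.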
